A study of Mus musculus with 16 samples.

Results

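The transcripts described here encode the striated muscle thin filament, titin and cardiac myosin-binding protein C. They were chosen by gene symbol: Actc1, Acta1, Tnnt2, Tnni3, Tnnc1, Tpm1, Ttn, Mybpc3 and Tmod1, which are 9 of the 55278 gene symbols in the count tables. All 9 passed the filter on low counts, and each was represented by a single row. Hearts came from male mice on a C57BL/6J background, aged 8 to 12 weeks, and were collected 12 h after an intraperitoneal injection. PPARα-deficient mice (lacking PPARα in cardiomyocytes) and Ppara-flox mice (carrying the floxed Ppara alleles and no stated deletion) each received lipopolysaccharide (LPS, a bacterial endotoxin) at 5 mg/kg, or its vehicle, phosphate-buffered saline (PBS). Each of the 4 groups held 4 mice with 1 library per mouse, 16 libraries in all. The labels do not name the Cre line, and no group carried Cre without the deletion, so Cre and the loss of PPARα cannot be told apart here. The numbers in the table headers were higher in all 8 LPS libraries than in all 8 PBS libraries, so LPS and this numbering cannot be told apart either.

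In the sarcomere, thin filaments of actin carry tropomyosin and the troponin complex, which together make the sliding of actin along myosin depend on calcium. Cardiac actin (Actc1) and skeletal actin (Acta1) are the striated actins, and tropomodulin 1 (Tmod1) caps the pointed ends of the filaments. Titin spans from Z-disc to M-band as an elastic scaffold of the thick filament, while myosin-binding protein C (Mybpc3) tethers and tunes the myosin heads. PPARα is a nuclear receptor known for driving fatty acid oxidation genes in cardiomyocytes.

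The upstream sequences of 3 of these genes are shown because their calls differed: Actc1 had the largest LPS difference of the 9, Acta1 is its closest relative and did not pass the test, and Tnnt2 was the member called between genotypes. Sequences are from RefSeq on GRCm38.p6, read 5′ to 3′ on the strand of the gene and ending just before the RefSeq start. For Actc1 the last 12 bases of the 250-base window are left out because GENCODE vM21 places an exon there. GENCODE places the outermost start of Actc1 at base -673 from the RefSeq start, so this window lies within the GENCODE gene. For Acta1 and Tnnt2 the outermost GENCODE start lies 24 and 20 bases after the RefSeq start. The capitals mark a CArG box (the core element bound by serum response factor), the MCAT letters CATTCC and the TATAAA letters. The window of Actc1 lies at chr2:114052888-114053125 on the minus strand, Acta1 at chr8:123894776-123895025 on the minus strand and Tnnt2 at chr1:135836084-135836333 on the plus strand.
Actc1: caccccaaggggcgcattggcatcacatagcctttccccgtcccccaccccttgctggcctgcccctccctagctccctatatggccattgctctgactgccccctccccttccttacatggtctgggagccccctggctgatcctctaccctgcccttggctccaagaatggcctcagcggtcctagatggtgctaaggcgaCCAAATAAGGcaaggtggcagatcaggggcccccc
Acta1: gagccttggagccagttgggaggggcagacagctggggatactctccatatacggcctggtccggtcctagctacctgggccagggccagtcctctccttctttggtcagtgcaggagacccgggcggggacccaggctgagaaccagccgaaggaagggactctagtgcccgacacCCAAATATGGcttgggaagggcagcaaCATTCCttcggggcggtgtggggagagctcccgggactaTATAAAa
Tnnt2: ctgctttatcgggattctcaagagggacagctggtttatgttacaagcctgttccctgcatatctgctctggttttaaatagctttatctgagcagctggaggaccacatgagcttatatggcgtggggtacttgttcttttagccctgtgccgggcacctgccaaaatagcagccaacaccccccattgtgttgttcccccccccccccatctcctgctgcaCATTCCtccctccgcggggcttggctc

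All 9 genes had an entry in the RefSeq promoter table, with 10 windows in all since Tnnt2 had 2. Searched on both strands of the 250 bases, a CArG box was present in 2 of these 10 windows, those of Actc1 (bases -47 to -38 from the start) and Acta1 (bases -73 to -64), against 1.47% of all 32851 windows. The MCAT letters CATTCC occurred in 5 of the 10 windows (Acta1, Tmod1, Tnnc1, Tnnt2 and Tpm1), against 12.6% of all. TATAAA occurred in Acta1 alone among the 10 windows, against 12.4% of all, and the GATA letters AGATAA in Tnnt2 alone, against 9.99%. The full consensus of the PPAR response element, a direct repeat with 1 spacer base, was in none of the 10 windows and in 0.0335% of all. Of the 10 windows, 5 overlapped annotated exons of their own gene, those of Tmod1, Tpm1, Tnni3 and Actc1 and the second Tnnt2 window. These matches describe letters in a window and not sites of binding.

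The libraries held 65569134 to 75436023 estimated counts in total, and 22.5% to 29.8% of counts came from mitochondrially encoded genes. Cardiomyocyte marker transcripts dominated, with Myh6 (α-myosin heavy chain) at 17239 CPM or more in every library, whereas all 6 islet markers were at 0 in all libraries although the extraction text of the labels speaks of islets. The summed level of 12 skeletal muscle markers was 16.9 to 37.8 CPM over all libraries, with Myh4, a fast skeletal myosin, the only one at 0 in every library. The summed level of 8 atrial markers was 128 to 218 CPM in PPARα-deficient and 77.0 to 95.4 CPM in Ppara-flox LPS hearts, and 208 to 344 CPM in PPARα-deficient and 121 to 176 CPM in Ppara-flox PBS hearts. Of these, Myl7 and Sln had at most 30 and 8 counts. Between genotypes Nppa was higher without overlap in PPARα-deficient mice, in LPS hearts (log2 fold change 1.13 ± 0.21) and in PBS hearts (0.98 ± 0.21). Myl4, Stard10 and Dkk3 overlapped between genotypes in LPS and in PBS hearts. Ppara averaged 14.6 ± 2.57 CPM in PPARα-deficient and 50.2 ± 9.86 CPM in Ppara-flox PBS hearts (SD, n = 4 each), a log2 fold change of -1.79 ± 0.28 (SE; edgeR adjusted p = 0.00287). In LPS hearts it averaged 7.98 ± 3.38 CPM in PPARα-deficient and 11.3 ± 3.31 CPM in Ppara-flox mice (log2 fold change -0.50 ± 0.27, adjusted p = 0.651). Ppara itself fell with LPS in Ppara-flox hearts (log2 fold change -2.15 ± 0.28, adjusted p = 1.25e-05). It also fell in PPARα-deficient hearts (log2 fold change -0.87 ± 0.27, adjusted p = 0.0188), where the groups overlapped.

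After LPS, most transcripts of the thin filament and Mybpc3 fell in both genotypes, and none of the 9 rose. In PPARα-deficient hearts 6 of the 9 fell (Actc1, Tmod1, Mybpc3, Tnni3, Tnnc1 and Tpm1), where 18.3% of the 18713 genes tested were called lower and 19.4% higher. In Ppara-flox hearts these 6 and Tnnt2 fell, 7 of the 9, where 19.1% of all genes tested were called lower and 20.2% higher. The median log2 fold change of the 9 was -0.39 in PPARα-deficient and -0.52 in Ppara-flox hearts, beside a median of 0.01 over all genes tested in each comparison. In 6 of the 9 genes in PPARα-deficient hearts and 5 of the 9 in Ppara-flox hearts every LPS heart was lower than every PBS heart, beside 18.4% of all genes in each comparison. Among the genes that passed, the log2 fold change was largest in size for Actc1, then Tmod1 and then Mybpc3 in both genotypes. Ttn and Acta1 did not pass the test in either genotype. Calls are edgeR quasi-likelihood tests with a Benjamini-Hochberg adjusted p under 0.05 over all genes. Because these are whole hearts, fewer cardiomyocytes and less RNA per cardiomyocyte cannot be told apart.

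**Figure D1:**
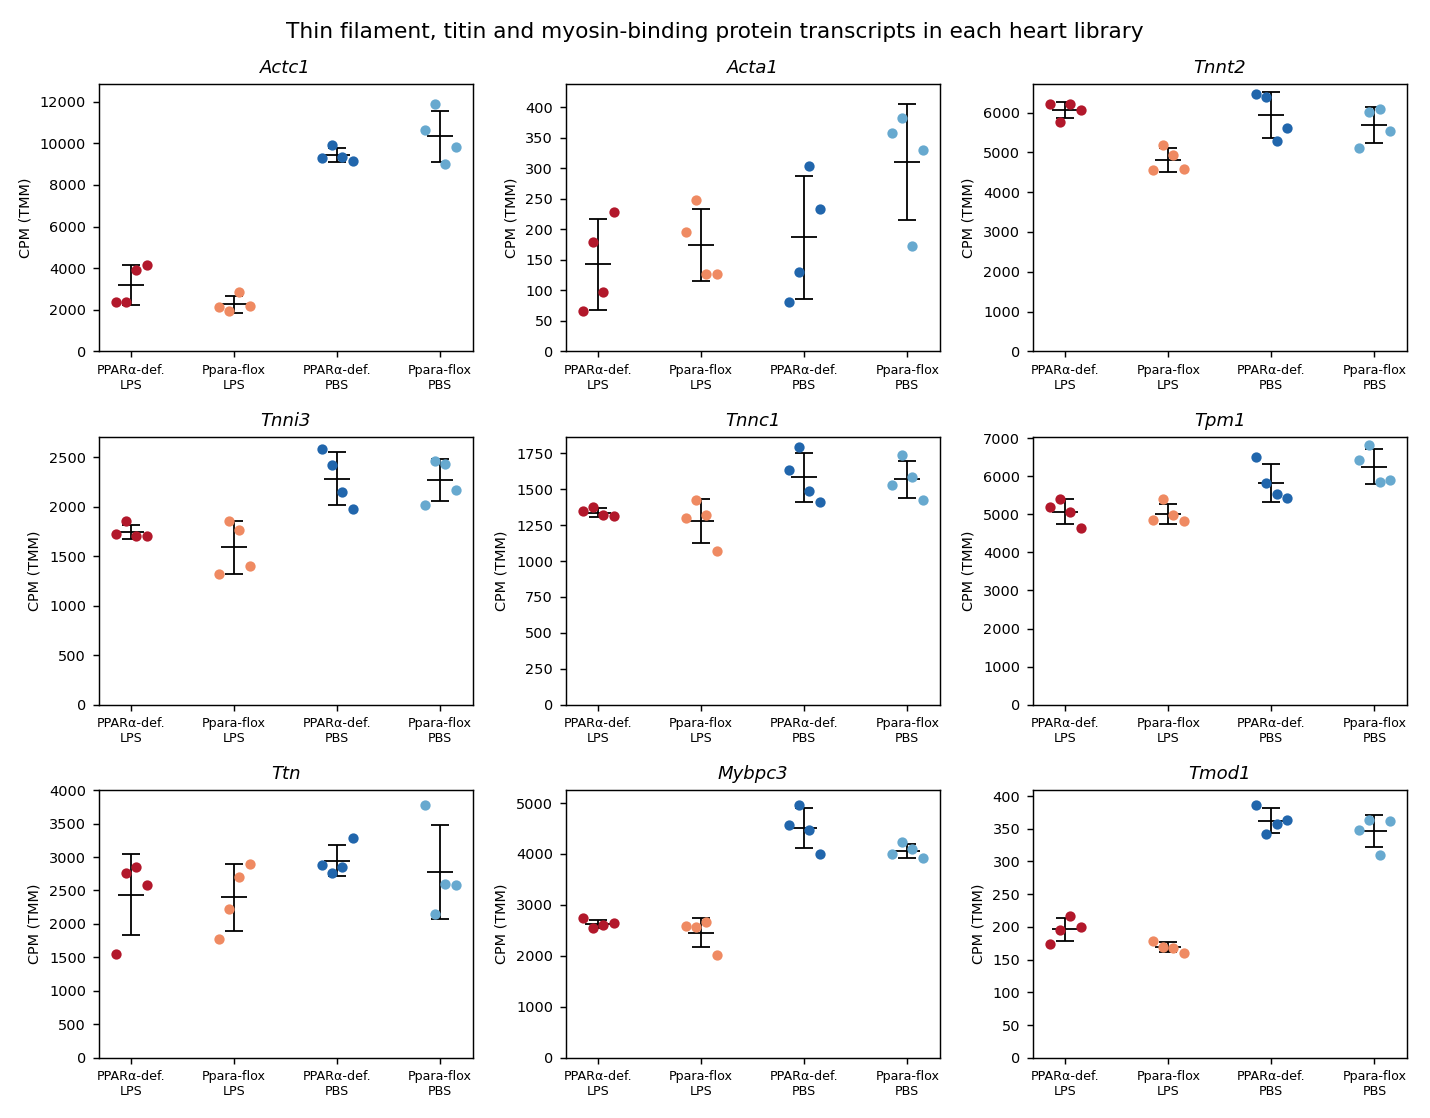
Level of each of the 9 transcripts in every library, in CPM (counts scaled to library size with TMM factors, linear axis starting at 0). Points are single hearts (n = 4 per group), the horizontal bar is the mean and the whiskers are 1 SD; Actc1, Mybpc3 and Tmod1 in LPS hearts lie below every PBS heart, whereas Ttn and Acta1 overlap.

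The summed level of 12 cardiomyocyte markers, which are not among the 9 genes, moved in the same direction: it ranged over 41256 to 44591 CPM in PPARα-deficient and 37773 to 44800 CPM in Ppara-flox LPS hearts, against 59912 to 68462 CPM in PPARα-deficient and 65625 to 70366 CPM in Ppara-flox PBS hearts. Of these 12, 8 fell and none rose with LPS in PPARα-deficient hearts and 11 fell and none rose in Ppara-flox hearts. Neutrophil marker sums were 57.3 to 90.5 CPM and 64.1 to 116 CPM in PPARα-deficient and Ppara-flox LPS hearts, against 4.11 to 10.9 CPM and 3.54 to 5.22 CPM in the matching PBS hearts. Fibroblast marker sums were 1281 to 1485 CPM and 1103 to 1504 CPM in PPARα-deficient and Ppara-flox LPS hearts, against 1685 to 1934 CPM and 1799 to 2059 CPM in the matching PBS hearts. Macrophage marker sums were 196 to 265 CPM and 167 to 223 CPM in the LPS hearts, against 335 to 399 CPM and 300.1 to 368 CPM in the matching PBS hearts. The cardiomyocyte, neutrophil, fibroblast and macrophage sums did not overlap between LPS and PBS hearts of a genotype, the neutrophil sum being higher and the other 3 sums lower with LPS. Single macrophage markers went both ways, as 5 of 11 fell and 2 rose (Cd68 and Fcgr1) in each genotype. Of 10 fibroblast markers, 7 fell and 1 rose (Dcn) in each genotype. Endothelial marker sums overlapped, at 1569 to 1708 CPM and 1498 to 1972 CPM in the LPS hearts, against 1616 to 1899 CPM and 1716 to 1840 CPM in the matching PBS hearts. Smooth muscle marker sums were 3023 to 3253 CPM in PPARα-deficient and 2404 to 2890 CPM in Ppara-flox LPS hearts, against 2634 to 2793 CPM and 2707 to 2999 CPM in the matching PBS hearts, higher without overlap in PPARα-deficient mice and overlapping in Ppara-flox mice. Of these 8 markers, Des alone rose with LPS in both genotypes, while 5 fell in PPARα-deficient and 6 fell in Ppara-flox hearts. The higher smooth muscle sum in PPARα-deficient LPS hearts thus rests on Des (log2 fold change 0.52 ± 0.07) and does not stand for the list. The part of any of these in the results was not tested.

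Among the actins, Actc1 gives most of the heart's sarcomeric actin. It stood at 2375, 2356, 3911 and 4149 CPM in PPARα-deficient LPS hearts, against 9315, 9927, 9361 and 9134 CPM in PPARα-deficient PBS hearts. Ppara-flox mice had 2126, 1947, 2868 and 2161 CPM in LPS hearts, against 10642, 11867, 9002 and 9812 CPM in PBS hearts. Every LPS heart was far below every PBS heart, and PPARα-deficient LPS replicates 3 and 4 were higher than any Ppara-flox LPS heart. The log2 fold change was -1.56 ± 0.17 (2.95-fold lower, adjusted p = 2.5e-06) in PPARα-deficient hearts and -2.18 ± 0.18 (4.54-fold lower, adjusted p = 8.34e-08) in Ppara-flox hearts. No 50-base stretch of Actc1 transcripts occurred in transcripts of another gene in GENCODE vM21.

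Acta1, the actin of skeletal muscle that the heart also makes at a low level, varied widely within each group. It had 66.8, 179, 96.9 and 228 CPM in PPARα-deficient LPS hearts, against 81.1, 130, 304 and 234 CPM in PPARα-deficient PBS hearts. In Ppara-flox mice it had 196, 248, 126 and 127 CPM in LPS hearts, against 357, 381, 172 and 330 CPM in PBS hearts. The groups overlapped in both genotypes. The log2 fold change was -0.39 ± 0.41 (adjusted p = 0.497) and -0.83 ± 0.41 (adjusted p = 0.124) in PPARα-deficient and Ppara-flox hearts; the Ppara-flox difference passed the test only when the 8 libraries compared were fitted alone (adjusted p = 0.0316). The PPARα-deficient value depended on single hearts: it was -0.052 without PBS replicate 3, -0.15 without LPS replicate 1, -0.24 without LPS replicate 3, -0.64 without PBS replicate 1 and -0.71 without LPS replicate 4. Some 2.02% of its 50-base transcript stretches also occurred in the gene model Gm47692, so a small part of its counts is uncertain.

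Tropomyosin 1 (Tpm1) lies along the actin filament and covers its myosin-binding sites at rest. It had 5183, 5413, 5056 and 4637 CPM in PPARα-deficient LPS hearts, against 6512, 5822, 5525 and 5436 CPM in PPARα-deficient PBS hearts. Its levels in Ppara-flox mice were 4852, 5403, 4977 and 4814 CPM in LPS hearts, against 6426, 6820, 5849 and 5911 CPM in PBS hearts. The groups did not overlap in either genotype, and in PPARα-deficient mice the gap was narrow. Tpm1 fell by 0.20 ± 0.07 on the log2 scale (adjusted p = 0.0451) in PPARα-deficient hearts and by 0.32 ± 0.07 (adjusted p = 0.00268) in Ppara-flox hearts. The first of these calls was lost in 8 of 19 alternatives, among them without PPARα-deficient LPS replicates 1, 3 or 4 or PBS replicates 1 or 2 (adjusted p 0.0204 to 0.171 over the alternatives).

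Of the 3 troponin genes, Tnni3 and Tnnc1 fell in both genotypes and Tnnt2 in Ppara-flox hearts. Tnni3, the inhibitory subunit troponin I, had 1728, 1853, 1708 and 1701 CPM in PPARα-deficient LPS hearts, against 2582, 2424, 2155 and 1978 CPM in PPARα-deficient PBS hearts. Ppara-flox mice had 1317, 1862, 1770 and 1405 CPM in LPS hearts, against 2017, 2463, 2433 and 2172 CPM in PBS hearts. All LPS hearts were lower than all PBS hearts of their genotype, with log2 fold changes of -0.39 ± 0.11 (adjusted p = 0.0111) in PPARα-deficient and -0.52 ± 0.11 (adjusted p = 0.00144) in Ppara-flox hearts. Dnaaf3, on the same strand, shares 86 exonic bases with Tnni3 and averaged at most 9.79 CPM in any group.

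Tnnc1, the calcium-binding subunit troponin C, had 1346, 1375, 1320 and 1312 CPM in PPARα-deficient LPS hearts, against 1636, 1793, 1487 and 1411 CPM in PPARα-deficient PBS hearts. In Ppara-flox mice it had 1297, 1428, 1318 and 1068 CPM in LPS hearts, against 1531, 1736, 1587 and 1425 CPM in PBS hearts. The groups did not overlap in PPARα-deficient mice and overlapped by 1 pair of hearts in Ppara-flox mice, LPS replicate 2 and PBS replicate 4. Its log2 fold changes of -0.24 ± 0.09 (adjusted p = 0.0499) in PPARα-deficient and -0.30 ± 0.09 (adjusted p = 0.0171) in Ppara-flox hearts lay close to the threshold. The first call was lost in 10 of 19 alternatives, including the removal of any of the 4 PPARα-deficient LPS libraries or of PBS replicates 1, 2 or 3 (adjusted p 0.014 to 0.174). The second was lost in 3 of 19, namely without Ppara-flox LPS replicate 4, alone or together with PPARα-deficient LPS replicate 3, and without Ppara-flox PBS replicate 2 (adjusted p 0.00304 to 0.0626).

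Tnnt2, the subunit troponin T that anchors the complex to tropomyosin, did not pass the test in PPARα-deficient hearts. It had 6212, 5765, 6206 and 6070 CPM in PPARα-deficient LPS hearts, against 6467, 6398, 5282 and 5610 CPM in PPARα-deficient PBS hearts. Its levels in Ppara-flox mice were 4549, 5183, 4942 and 4592 CPM in LPS hearts, against 5121, 6019, 6080 and 5543 CPM in PBS hearts. The PPARα-deficient groups overlapped widely, and the Ppara-flox groups overlapped through 1 pair of hearts, LPS replicate 2 and PBS replicate 1. The log2 fold change was 0.03 ± 0.08 (adjusted p = 0.8) in PPARα-deficient hearts and -0.24 ± 0.08 (adjusted p = 0.0206) in Ppara-flox hearts. The Ppara-flox call was lost in 5 of 19 alternatives: without Ppara-flox LPS replicates 1 or 4, without PBS replicates 2 or 3, and without the 2 LPS libraries named above (adjusted p 0.00787 to 0.0657).

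**Figure D2:**
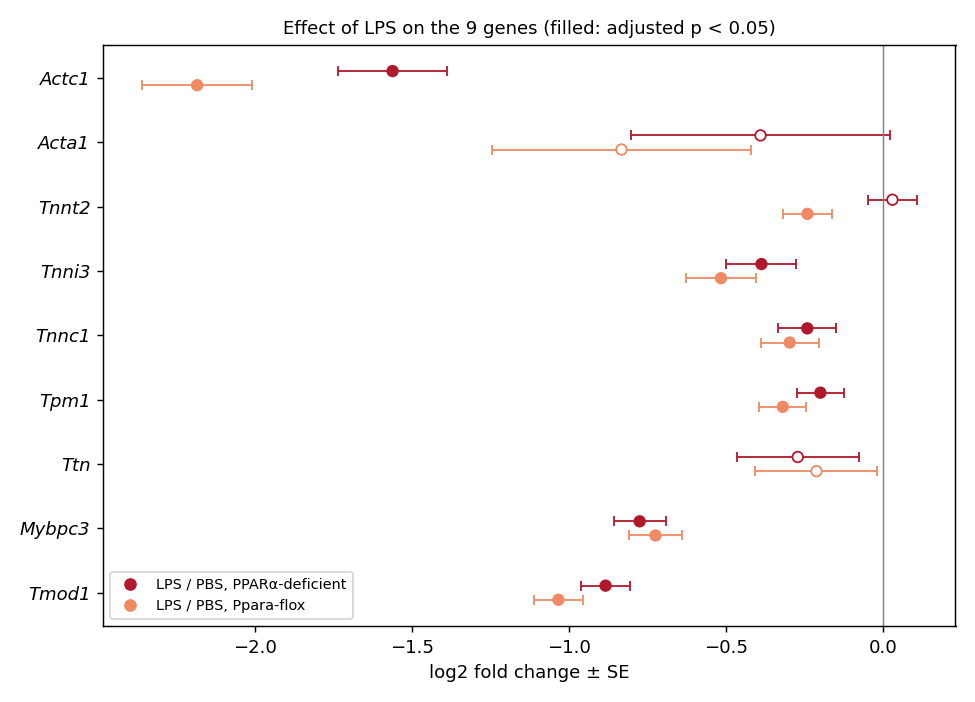
Effect of LPS on each of the 9 genes, as log2 fold change of LPS over PBS hearts with its standard error, in PPARα-deficient and Ppara-flox hearts. Filled symbols passed an adjusted p under 0.05 (edgeR, 4 mice per group); Actc1 lies farthest left at -1.56 and -2.18, and only Tnnt2 in PPARα-deficient hearts lies right of 0, at 0.03.

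Tmod1, the pointed-end cap, had 174, 196, 217 and 200 CPM in PPARα-deficient LPS hearts, against 387, 342, 357 and 364 CPM in PPARα-deficient PBS hearts. Ppara-flox mice had 179, 170.0, 168 and 160.4 CPM in LPS hearts, against 348, 364, 310.5 and 362 CPM in PBS hearts. The groups were well apart in both genotypes and the spread within each was small. Tmod1 fell by 0.88 ± 0.08 on the log2 scale (1.84-fold lower, adjusted p = 2.36e-07) in PPARα-deficient hearts and by 1.03 ± 0.08 (2.05-fold lower, adjusted p = 4.32e-08) in Ppara-flox hearts. Tstd2, on the opposite strand, covers 32.6% of the Tmod1 exons and averaged 11.5 to 16 CPM over the groups; the strand setting of the counting is not given in the sources used here, so its share of the Tmod1 counts is unknown.

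On the thick filament side, Mybpc3 had 2735, 2543, 2609 and 2637 CPM in PPARα-deficient LPS hearts, against 4569, 4962, 4463 and 4008 CPM in PPARα-deficient PBS hearts. In Ppara-flox mice it had 2578, 2571, 2661 and 2023 CPM in LPS hearts, against 4003, 4229, 4097 and 3914 CPM in PBS hearts. Every LPS heart was lower than every PBS heart. The fall was 0.77 ± 0.08 on the log2 scale (1.71-fold lower, adjusted p = 1.81e-06) in PPARα-deficient hearts, and 0.72 ± 0.08 (1.65-fold lower, adjusted p = 3.48e-06) in Ppara-flox hearts. Myh6, the myosin it binds, also fell, with log2 fold changes of -0.76 ± 0.08 (adjusted p = 8.99e-07) and -0.88 ± 0.08 (adjusted p = 1.66e-07) in PPARα-deficient and Ppara-flox hearts.

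Ttn had 1552, 2768, 2854 and 2578 CPM in PPARα-deficient LPS hearts, against 2887, 2754, 2847 and 3283 CPM in PPARα-deficient PBS hearts. Its levels in Ppara-flox mice were 1777, 2217, 2701 and 2893 CPM in LPS hearts, against 3779, 2150, 2592 and 2584 CPM in PBS hearts. The groups overlapped in both genotypes, with PPARα-deficient LPS replicate 1 the lowest and Ppara-flox PBS replicate 1 the highest of all 16. The log2 fold changes, -0.27 ± 0.19 (adjusted p = 0.299) in PPARα-deficient and -0.21 ± 0.19 (adjusted p = 0.426) in Ppara-flox hearts, did not pass the test. They also depended on single hearts: the PPARα-deficient value was -0.11 without LPS replicate 1, and the Ppara-flox value was -0.027 without PBS replicate 1, -0.092 without LPS replicate 1 and -0.32 without LPS replicate 4.

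Between genotypes after LPS, 1 of the 9 genes was higher and none was lower in PPARα-deficient hearts, where 0.385% of all genes tested were called higher and 0.85% lower. That gene was Tnnt2, at 6063 ± 210 CPM in PPARα-deficient and 4817 ± 301 CPM in Ppara-flox LPS hearts (SD, n = 4 each). The values did not overlap, as they did not, in the higher direction, for 2.53% of all genes. Its log2 fold change was 0.33 ± 0.08 (1.26-fold higher, adjusted p = 0.0465). The call held in 6 of 19 alternatives and was lost when any single one of the 8 libraries was left out, with upper-quartile factors, without the filter, in the 8 libraries alone and with the replicate block (adjusted p 0.00694 to 0.243). The log2 fold change itself stayed between 0.30 and 0.37.

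Actc1 averaged 3198 ± 966 CPM in PPARα-deficient and 2276 ± 406 CPM in Ppara-flox LPS hearts, and Tmod1 averaged 196 ± 17.8 and 169 ± 7.49 CPM in the same groups. Their log2 fold changes of 0.49 ± 0.17 (unadjusted p = 0.0103, adjusted p = 0.282) and 0.22 ± 0.08 (unadjusted p = 0.0127, adjusted p = 0.311) did not pass the adjusted test, and the groups overlapped. For the other 6 genes the log2 fold change lay between -0.29 (Acta1) and 0.14 (Tnni3). The cardiomyocyte marker Csrp3, a Z-disc LIM protein, was also higher in PPARα-deficient LPS hearts (log2 fold change 1.52 ± 0.14, adjusted p = 1.09e-05), the only one of the 12 cardiomyocyte markers called. Nppa, which encodes atrial natriuretic peptide and is one of the atrial markers, was also higher there (log2 fold change 1.13 ± 0.21, adjusted p = 0.00993). In PBS hearts Nppa was higher without overlap but was not called (log2 fold change 0.98 ± 0.21, adjusted p = 0.0611). The part of these in the Tnnt2 result was not tested.

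In PBS hearts none of the 9 genes differed between genotypes, where 0.433% of all genes were called in either direction. None of the 9 had an unadjusted p under 0.05, and DESeq2 also called none of them. Acta1 had the widest difference, at 187 ± 101 CPM in PPARα-deficient and 310 ± 94.4 CPM in Ppara-flox PBS hearts (log2 fold change -0.73 ± 0.41, adjusted p = 0.992). The log2 fold changes of the other 8 lay between -0.13 (Actc1) and 0.15 (Mybpc3).

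**Figure D3:**
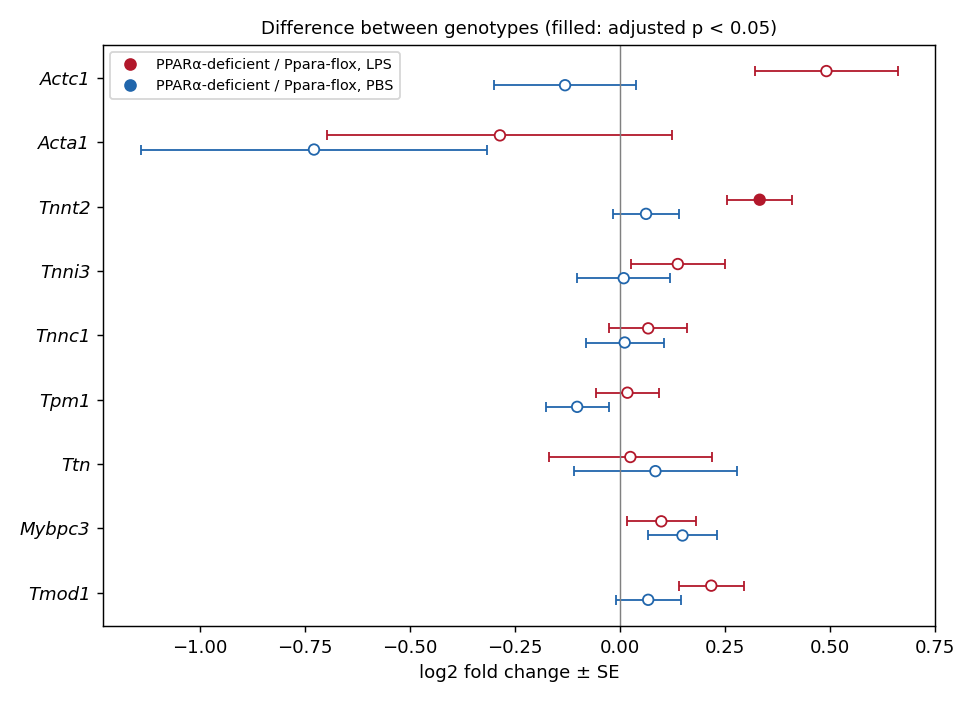
Difference between genotypes for each of the 9 genes, as log2 fold change of PPARα-deficient over Ppara-flox hearts with its standard error, in LPS and PBS hearts (4 mice per group). Tnnt2 in LPS hearts, at 0.33, is the filled symbol (adjusted p under 0.05); the other 17 symbols are open.

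Whether the LPS effect itself differed between genotypes was tested as an interaction, in which the log2 fold change with LPS of Ppara-flox mice is subtracted from that of PPARα-deficient mice. None of the 9 genes passed, nor did any of the 18713 genes tested with edgeR (0%), while 1075 genes had an unadjusted p under 0.05 and DESeq2 called 55. Actc1 had an interaction of 0.62 ± 0.24 (unadjusted p = 0.019, adjusted p = 0.812) and Tnnt2 of 0.27 ± 0.11 (unadjusted p = 0.025, adjusted p = 0.815). The other 7 lay between -0.06 (Ttn) and 0.44 (Acta1), with unadjusted p of 0.189 or more.

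Ratios within a library need no scaling between libraries and were compared by an exact two-sided permutation test of 4 against 4 libraries, whose smallest possible p is 0.0286. None of the 20 tests (5 ratios in 4 comparisons) passed after adjustment over the 20, with 0.114 as the smallest adjusted p. With so few libraries a test could pass only if most of the 20 reached that smallest possible p, so this failure decides little. The log2 ratio of striated actin (Actc1 plus Acta1) to Myh6 was -2.59 ± 0.39 in PPARα-deficient LPS hearts, against -1.77 ± 0.10 in PPARα-deficient PBS hearts (SD, n = 4 each; exact p = 0.0286, adjusted p = 0.114). In Ppara-flox mice it was -2.99 ± 0.14 in LPS hearts, against -1.75 ± 0.15 in PBS hearts (exact p = 0.0286, adjusted p = 0.114). The values did not overlap in either genotype, with less actin relative to myosin in every LPS heart.

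The log2 ratio of Tnnt2 to Tnni3 was 1.80 ± 0.11 in PPARα-deficient LPS hearts, against 1.38 ± 0.09 in PPARα-deficient PBS hearts. In Ppara-flox mice it was 1.61 ± 0.16 in LPS hearts, against 1.33 ± 0.03 in PBS hearts. Both differences had no overlap (each exact permutation p = 0.0286, adjusted p = 0.114), with relatively more Tnnt2 in every LPS heart. Acta1 relative to Actc1 was higher in every LPS than in every PBS heart of Ppara-flox mice (log2 ratio -3.75 ± 0.68 and -5.12 ± 0.40; exact permutation p = 0.0286, adjusted p = 0.114). In PPARα-deficient mice the same ratio overlapped, at -4.60 ± 0.77 in LPS and -5.83 ± 0.87 in PBS hearts (exact permutation p = 0.143). The log2 ratio of Ttn to Mybpc3 overlapped between LPS and PBS hearts in both genotypes (exact permutation p of 0.114 and 0.143 in PPARα-deficient and Ppara-flox mice), and Tnni1, the slow skeletal troponin I, had at most 14 counts in any library, too few for its ratio to Tnni3 to be read.

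**Figure D4:**
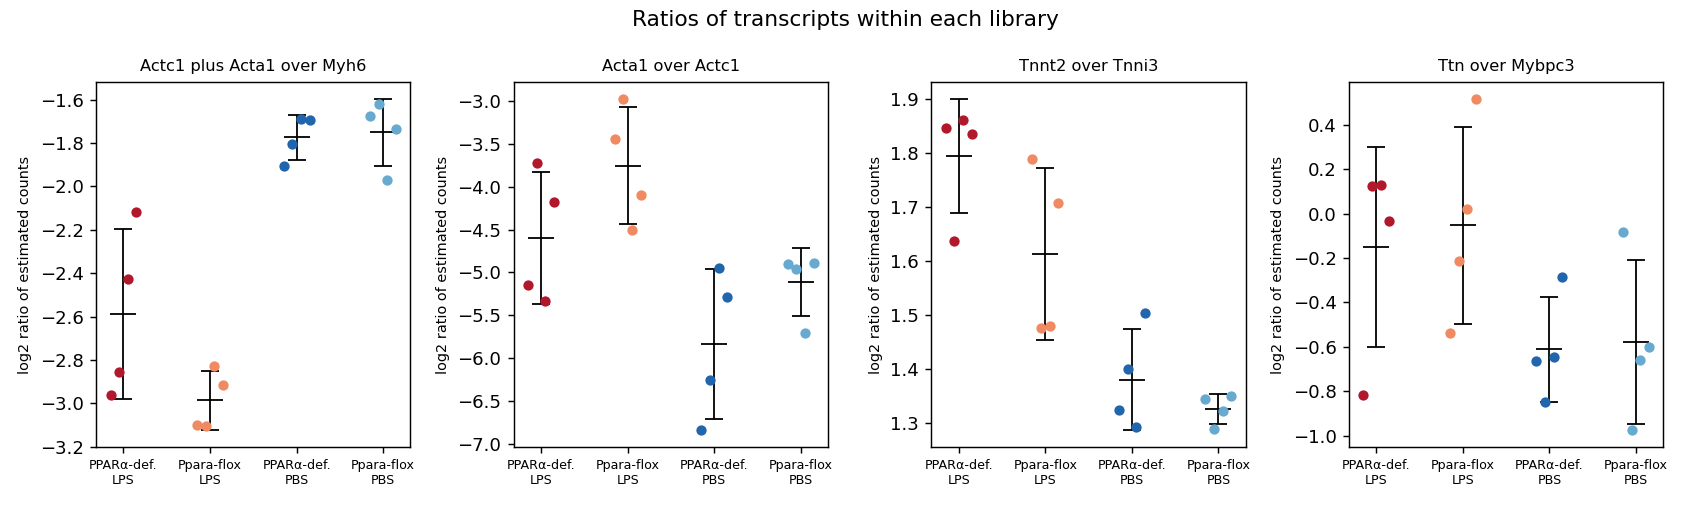
Log2 ratios of estimated counts within each library for 4 pairs of transcripts; points are single hearts (n = 4 per group), bars are means and whiskers 1 SD, and the axes do not start at 0 because log ratios have no zero level. The actin to myosin ratio of LPS hearts (-3.10 to -2.12) lies below that of all PBS hearts (-1.97 to -1.62), whereas Ttn to Mybpc3 overlaps.

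The 9 transcripts together made up 2.27% ± 0.128 of all counts in PPARα-deficient LPS hearts, against 3.22% ± 0.246 in PPARα-deficient PBS hearts (SD, n = 4 each; exact permutation p = 0.0286, 0.0571 adjusted over 4 tests). In Ppara-flox mice they made up 2.10% ± 0.162 in LPS hearts, against 3.33% ± 0.263 in PBS hearts (exact permutation p = 0.0286, adjusted p = 0.0571). The shares of LPS and PBS hearts did not overlap in either genotype. Between genotypes they overlapped, in LPS hearts (exact permutation p = 0.171) and in PBS hearts (exact permutation p = 0.571).

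Per kilobase of annotated exon, Actc1 had the highest mean level of the 9 in every group and Ttn the lowest. Actc1 averaged 1976 ± 597 CPM per kb in PPARα-deficient and 1406 ± 251 in Ppara-flox LPS hearts, against 5831 ± 212 in PPARα-deficient and 6385 ± 756 in Ppara-flox PBS hearts. Tnnc1 came next at 1286 ± 27.4 and 1227 ± 145 CPM per kb in PPARα-deficient and Ppara-flox LPS hearts, against 1519 ± 162 and 1508 ± 125 in the matching PBS hearts. In PBS hearts Actc1 was thus well above Tnnc1, whereas in Ppara-flox LPS hearts the values of the pair overlapped. The group means of Tnni3, Tpm1, Tnnt2 and Mybpc3 lay between 590.5 and 1108 CPM per kb, with several neighbours overlapping. Acta1, with group means of 93.0 to 202 CPM per kb, and Tmod1, with 42.9 to 91.9, followed, and their values overlapped in the 2 PPARα-deficient groups. Ttn had group means of 20.5 to 25.2 CPM per kb over 116825 exonic bases. The order in the middle depends on the length used, and with the longest transcript Actc1 was no longer first in Ppara-flox LPS hearts.

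Within this set, the likeness of pairs was described by Pearson's r of log2 CPM over the 16 libraries, which share their scaling and fall into LPS and PBS hearts. Actc1 ran most closely with Tmod1 (r = 0.97) and Mybpc3 (r = 0.93), pairs that share the large LPS difference. After the group means were removed, r was 0.49 for Actc1 and Tmod1 and 0.17 for Actc1 and Mybpc3. In those deviations Tnnc1 ran with Mybpc3 (r = 0.87), and Tnnt2 with Tnni3 (r = 0.78). Ttn and Acta1 stood apart, with r of at most 0.47 with any other member over the 16 libraries. Among 10550 other genes, those most like the mean of the 9 were Car14 and Smpd1 (r = 0.97 each), Ttyh3 (0.97), Fbxl22 (0.97) and Bri3 (0.96). Those most like Actc1 alone were Kank2 (0.99), Perm1 (0.99) and Alpk3 (0.99), most like Acta1 were Stradb (0.75), Otud6b (0.73) and Gzf1 (0.72), and most like Ttn were Ccnt2 (0.84), Atp6v1a (0.83) and Trpm7 (0.83).

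Other isoforms of the thin filament showed both directions. Of 11 tested, 4 rose and 2 fell with LPS in PPARα-deficient hearts, and 4 rose and 3 fell in Ppara-flox hearts. Of all genes tested, 19.4% were higher and 18.3% lower in PPARα-deficient hearts and 20.2% higher and 19.1% lower in Ppara-flox hearts, so the share that fell in PPARα-deficient hearts was near that of all genes. The cytoplasmic actins and the tropomyosins Tpm3 and Tpm4, widely made outside the sarcomere, were the 4 that rose in each genotype. Actb averaged 343 ± 35.6 CPM in PPARα-deficient LPS hearts, against 166 ± 27.8 CPM in PPARα-deficient PBS hearts (log2 fold change 1.04 ± 0.13, adjusted p = 9.67e-06). In Ppara-flox mice Actb averaged 341 ± 35.7 CPM in LPS hearts, against 164 ± 26.3 CPM in PBS hearts (2.08-fold higher, adjusted p = 7.86e-06). Actg1 rose by 1.00 ± 0.13 and 0.87 ± 0.13 on the log2 scale in PPARα-deficient and Ppara-flox hearts. Tpm3 was 2.56-fold higher in PPARα-deficient LPS hearts and 2.82-fold higher in Ppara-flox LPS hearts than in their PBS hearts, and Tpm4 averaged 249 ± 12.1 and 239 ± 22.5 CPM in PPARα-deficient and Ppara-flox LPS hearts, against 122 ± 16.4 and 120 ± 19.6 CPM in the matching PBS hearts. For these 4, no LPS heart overlapped a PBS heart of its genotype.

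**Figure D5:**
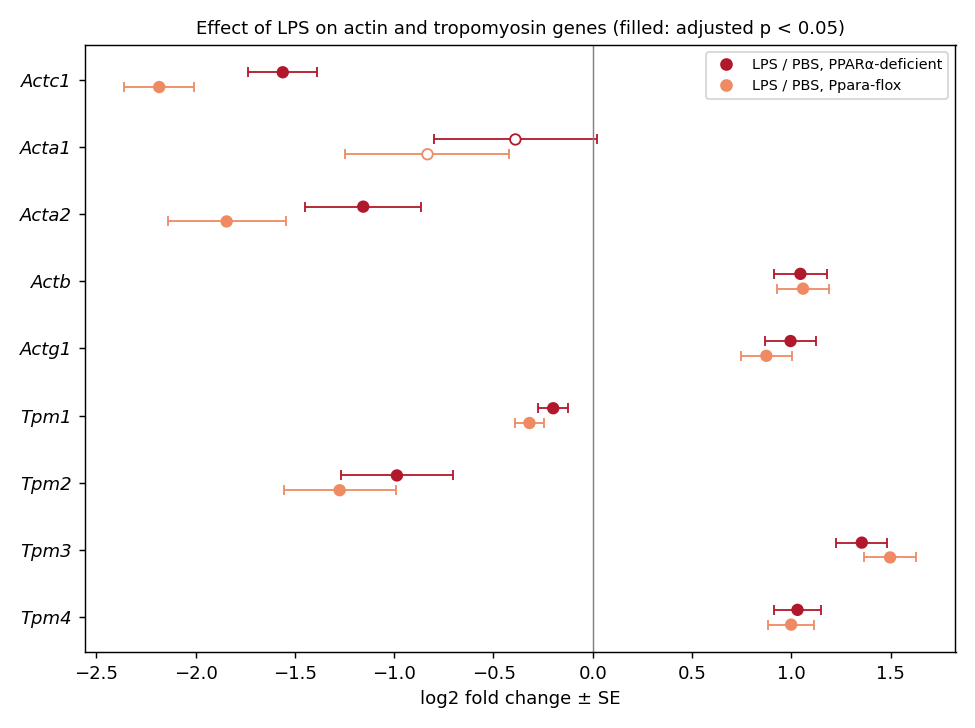
Effect of LPS on actin and tropomyosin genes, as log2 fold change of LPS over PBS hearts with its standard error, in PPARα-deficient and Ppara-flox hearts (4 mice per group; filled symbols passed an adjusted p under 0.05). Actb, Actg1, Tpm3 and Tpm4 lie at 0.87 or higher, and the muscle forms Actc1, Acta1, Acta2, Tpm1 and Tpm2 lie below 0, with Acta1 open in both genotypes. The actin gene Actg2, with group means of at most 0.40 CPM, is not drawn. Its log2 fold changes were 0.66 ± 0.96 in PPARα-deficient and -1.85 ± 0.97 in Ppara-flox hearts, neither called.

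The smooth muscle actin Acta2 fell in both genotypes, at 28.7 ± 13.7 CPM in PPARα-deficient LPS hearts, against 64.0 ± 17.3 CPM in PPARα-deficient PBS hearts, and at 24.5 ± 2.93 CPM in Ppara-flox LPS hearts, against 87.8 ± 32.3 CPM in Ppara-flox PBS hearts. Tpm2, a low-level tropomyosin here, also fell in both, and averaged 5.63 ± 2.12 CPM in PPARα-deficient and 4.96 ± 2.10 CPM in Ppara-flox LPS hearts, against 11.2 ± 2.35 and 12.0 ± 2.19 CPM in the matching PBS hearts. These 2 genes and Tnnc2, which had at most 32 counts in any library and fell in Ppara-flox hearts, were chosen for naming after their values were seen. Smooth muscle marker genes, a list that includes Acta2, had 5 of 8 lower and 1 higher in PPARα-deficient hearts and 6 of 8 lower and 1 higher in Ppara-flox hearts, and their part in the Acta2 result was not tested.

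Of 20 genes for thin filament assembly and capping, 3 rose and 8 fell with LPS in PPARα-deficient hearts, and 1 rose and 10 fell in Ppara-flox hearts. The share that rose was below that of all genes tested in both genotypes (19.4% and 20.2% in PPARα-deficient and Ppara-flox hearts), and the share that fell was above it (18.3% and 19.1%). Leaving out single libraries gave 1 to 3 genes that rose in either genotype. Fhod3, a formin needed for sarcomere assembly, averaged 109 ± 22.1 CPM in PPARα-deficient LPS hearts, against 388 ± 10.3 CPM in PPARα-deficient PBS hearts (log2 fold change -1.84 ± 0.16, adjusted p = 1.54e-07). In Ppara-flox mice it averaged 110 ± 26.9 CPM in LPS hearts, against 365 ± 28.8 CPM in PBS hearts (log2 fold change -1.73 ± 0.16, adjusted p = 2.51e-07). Unc45b, a chaperone for myosin, fell by 0.94 ± 0.11 and 1.08 ± 0.11 on the log2 scale in PPARα-deficient and Ppara-flox hearts. Nebl, a nebulin relative at the Z-disc, had log2 fold changes of -1.18 ± 0.13 in PPARα-deficient and -1.03 ± 0.13 in Ppara-flox hearts. Those of Smyd1, a muscle methyltransferase, were -0.94 ± 0.12 and -1.003 ± 0.117 in the same order. Cap2, an actin-binding cyclase-associated protein, had -0.65 ± 0.10 and -0.83 ± 0.10 in the same order. Nebl, Smyd1 and Cap2 were called lower in both genotypes.

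Lmod3, a leiomodin that nucleates actin filaments and is related to Tmod1, had 20.1, 18.3, 33.4 and 40.9 CPM in PPARα-deficient LPS hearts, against 10.9, 12.4, 15.3 and 16 CPM in Ppara-flox LPS hearts. The groups did not overlap, and Lmod3 was the only gene of this list called between genotypes after LPS (log2 fold change 1.04 ± 0.21, adjusted p = 0.0157). In PBS hearts it averaged 82.0 ± 8.59 CPM in PPARα-deficient and 71.9 ± 8.05 CPM in Ppara-flox mice and was not called. With LPS its log2 fold change was -1.54 ± 0.21 (adjusted p = 2.13e-05) in PPARα-deficient and -2.40 ± 0.22 (adjusted p = 2.56e-07) in Ppara-flox hearts. Leaving out single libraries gave 0 to 3 genes of this list called higher between genotypes after LPS. Xirp2 and Nrap, actin-binding proteins of cell junctions and Z-discs, had the smallest unadjusted interaction p of this list (0.93 ± 0.24 and 0.69 ± 0.21 on the log2 scale, adjusted p = 0.457 and 0.612).

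Of 19 titin and M-band partners, 7 rose and 7 fell with LPS in PPARα-deficient hearts, and 7 rose and 8 fell in Ppara-flox hearts. Of all genes tested, 19.4% were higher and 18.3% lower in PPARα-deficient hearts and 20.2% higher and 19.1% lower in Ppara-flox hearts. The shares of the list were above these in both directions. Those that rose include Ankrd1 and Ankrd2, stress-responsive ankyrin repeat proteins that bind the N2A region of titin. Ankrd23, of the same family, did not pass with LPS and was chosen for naming after its values were seen. Its log2 fold change was 0.48 ± 0.19 (adjusted p = 0.0504) in PPARα-deficient and -0.01 ± 0.19 (adjusted p = 0.97) in Ppara-flox hearts. Ankrd1 had 2608, 2419, 6121 and 3514 CPM in PPARα-deficient LPS hearts, against 569, 552, 955 and 550.2 CPM in PPARα-deficient PBS hearts. Ppara-flox mice had 1751, 2719, 2308 and 4636 CPM in LPS hearts, against 674, 490, 524 and 492 CPM in PBS hearts. Ankrd1 was thus higher in every LPS heart, with log2 fold changes of 2.48 ± 0.32 (adjusted p = 1.26e-05) and 2.39 ± 0.32 (adjusted p = 1.68e-05) in PPARα-deficient and Ppara-flox hearts.

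Ankrd2 had 34.8 to 98.3 CPM in PPARα-deficient and 15.5 to 43.2 CPM in Ppara-flox LPS hearts, and at most 0.33 CPM in any PBS heart. It rose in both genotypes (adjusted p = 4.18e-08 and 1.43e-07 in PPARα-deficient and Ppara-flox hearts). Fhl1, a LIM protein at the titin spring, had log2 fold changes of 1.49 ± 0.20 and 0.95 ± 0.20 in PPARα-deficient and Ppara-flox hearts. Trim54, a titin-associated ubiquitin ligase family member, had log2 fold changes of 0.58 ± 0.07 and 0.41 ± 0.07 in the same order, all called. Fhl2, a LIM protein at the titin N2B and M-band regions, fell in both genotypes. Its log2 fold change was -1.74 ± 0.24 (adjusted p = 2.55e-05) in PPARα-deficient and -2.15 ± 0.24 (adjusted p = 3.05e-06) in Ppara-flox hearts. Speg, a striated muscle kinase, had log2 fold changes of -0.65 ± 0.13 (adjusted p = 0.0011) and -1.03 ± 0.14 (adjusted p = 1.34e-05) in the same order.

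Between genotypes after LPS, Myom3, an M-band protein at a low level, was called higher at 2.57 ± 0.56 CPM in PPARα-deficient and 1.14 ± 0.31 CPM in Ppara-flox LPS hearts (log2 fold change 1.16 ± 0.26, adjusted p = 0.034), the only one of the 19. Leaving out single libraries gave 0 to 2 genes of this list called higher in that comparison.

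Of 14 tested genes for titin splicing and sarcomere gene transcription, none rose, 9 fell with LPS in PPARα-deficient hearts and 8 fell in Ppara-flox hearts, where 18.3% and 19.1% of all genes tested were lower. Rbm20, the splicing factor that sets which titin exons are kept, averaged 117 ± 25.6 CPM in PPARα-deficient LPS hearts, against 221 ± 34.5 CPM in PPARα-deficient PBS hearts (log2 fold change -0.92 ± 0.16, adjusted p = 0.000215). In Ppara-flox mice Rbm20 averaged 93.0 ± 17.9 CPM in LPS hearts, against 202 ± 13.3 CPM in PBS hearts (log2 fold change -1.12 ± 0.16, adjusted p = 3.11e-05). Titin isoforms cannot be read from these gene-level tables. Rbm24, a second splicing regulator of sarcomere genes, had log2 fold changes of -0.86 ± 0.20 and -1.31 ± 0.20 in PPARα-deficient and Ppara-flox hearts, both called. Gata4, a cardiac transcription factor, averaged 62.3 ± 9.05 and 48.8 ± 2.77 CPM in PPARα-deficient and Ppara-flox LPS hearts, against 96.9 ± 4.34 and 97.9 ± 14.7 CPM in the matching PBS hearts (adjusted p = 0.000254 and 2.81e-06). Mrtfb, a coactivator of serum response factor, had log2 fold changes of -1.15 ± 0.14 and -0.88 ± 0.14 in PPARα-deficient and Ppara-flox hearts. Mef2a, a muscle transcription factor, had log2 fold changes of -0.59 ± 0.12 and -0.38 ± 0.12 in PPARα-deficient and Ppara-flox hearts, both called. No gene of this list was called between genotypes, in LPS or PBS hearts.

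Of the myosin-binding paralogues, 2 of 4 were tested and neither passed in any comparison. Mybpc2, the fast skeletal form, had group means of 23.7 to 27.5 CPM. Its log2 fold changes with LPS were 0.14 ± 0.18 and 0.10 ± 0.18 in PPARα-deficient and Ppara-flox hearts. Mybphl, a related protein, had at most 24 counts in any library.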

How the data were processed

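RNA of 16 mouse hearts was sequenced with a stranded kit, per the labels' protocols. The authors deposited one table of estimated counts (expected counts, whole numbers, not scaled) per library. Tools listed in the submitters' processing notes are DESeq2 1.30.1, StringTie 1.3.3b, fastp 0.23.2 and HISAT, with the build GRCm38; which tool counted, with which annotation and strand setting, is not given in the sources used here. Low values pile up at multiples of 4, so counting precision may follow each total divided by 4 (16392284 to 18859006), which was not tested. Symbols turned into dates (27 rows) were left out and repeated symbols summed.

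Genes kept by filterByExpr (18713) were scaled by TMM and fitted with edgeR 4.0.16 (R 4.3.3; glmQLFit, glmQLFTest) as 4 group means over 16 libraries, with 12 residual degrees of freedom and Benjamini-Hochberg adjustment. An SE is the log2 fold change divided by the root of F. Ratios used a pseudocount of 0.5 and exact permutation tests (Python 3.11.15, numpy 2.4.6). Alternatives also used limma 3.58.1 (voom) and DESeq2 1.42.0. The fit was tested on simulated data. The labels give 4 mice per group, and the main fit did not pair samples by replicate number. The members and gene lists were chosen with earlier results of these data known. Named genes are the 9 members, Ppara, ratio genes, up to 4 called genes with the smallest adjusted p per list and comparison (or 2 with the smallest p), and those most like the members. One gene of that rule is not reported here. Exons and overlaps came from GENCODE vM21.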

Additional observations from a re-analysis of the deposited data

Results flagged for a closer look

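In 4 of 76 groups of 4 libraries the lowest library stood apart from the other 3 by Dixon's criterion, which chance alone meets in about 1 in 20 groups. Mybpc3 was 2023 CPM in Ppara-flox LPS replicate 4, against 2571 to 2661 CPM in the other 3 hearts of that group. The log2 ratio of Acta1 to Actc1 was -5.71 in Ppara-flox PBS replicate 3, against -4.96 to -4.89 in the other 3. The log2 ratio of Tnni1 to Tnni3 was -18.22 in Ppara-flox PBS replicate 4, which had 0 counts of Tnni1, against -14.21 to -13.61 in the other 3. The log2 ratio of Tnnt2 to Tnni3 was 1.64 in PPARα-deficient LPS replicate 2, against 1.83 to 1.86 in the other 3.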

How the results depend on the processing

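The counts of members lower after LPS kept within 1.5 times under every alternative run: leaving out single libraries gave 4 to 6 in PPARα-deficient and 5 to 7 in Ppara-flox hearts. Actc1, Tmod1, Mybpc3 and Tnni3 kept their LPS calls in all 19 alternatives in both genotypes. Tnnt2 between genotypes after LPS was less stable: 0 members were called higher with upper-quartile factors, without a filter, in the 8 libraries alone, with the replicate block, without replicate 4 of Ppara-flox LPS and replicate 3 of PPARα-deficient LPS together, and without each single library (0 to 0). Same-numbered libraries did not deviate together (r from -0.056 to 0.079), which shows no pairing but, with 4 libraries per group, cannot exclude it. In both PBS groups, replicates 1 and 2 had header numbers of 957 to 971, and replicates 3 and 4 of 1069 to 1075. In the other comparisons the replicate block changed no count of members, and it gave 187 genes between genotypes after LPS, against 231 without it. With the number series of the PBS libraries as a block, chosen after seeing the data, 95 genes and 0 members differed between genotypes with PBS.

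Over all genes, DESeq2 called 183 between genotypes with PBS (edgeR 81), 444 after LPS (edgeR 231; 141 in the 8 libraries alone) and 55 for the interaction, where edgeR called 0, but 4 with the stricter filter, 4 with counts divided by 4, 5 without the 2 LPS libraries together and 0 to 4 without single ones. The cause was not tested. Small differences changed sign: Tnnt2 with LPS in PPARα-deficient hearts was -0.0166 with upper-quartile factors and -0.0225 to 0.0732 without single libraries. Without the 2 LPS libraries together, Tnnc1 was -0.0011 between genotypes after LPS and -0.0126 for the interaction, and the ratio of Ttn to Mybpc3 differed by 0.000446. Without single libraries, between genotypes with PBS, Tnni3 lay at -0.0554 to 0.072, Tnnc1 at -0.0549 to 0.0629 and Ttn at -0.0204 to 0.27. After LPS, Ttn lay at -0.10 to 0.19, Tnnc1 at -0.0046 to 0.12 and Tpm1 at -0.015 to 0.0582. In the interaction, Ttn lay at -0.24 to 0.10 and Tnnc1 at -0.016 to 0.12.

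Without single libraries the log2 ratio of Ttn to Mybpc3 differed by -0.258 to 0.126 between genotypes after LPS and by -0.165 to 0.133 with PBS, actin to Myh6 by -0.097 to 0.0204 between genotypes with PBS, and Tnni1 to Tnni3 by -0.886 to 0.679 with LPS in PPARα-deficient hearts (0.0400 with a pseudocount of 4). The share of the 9 genes differed by -1.33 to -1.12 percentage points with LPS in Ppara-flox hearts and by 0.114 to 0.246 between genotypes after LPS without single libraries, where single adjusted p values passed the threshold. With the longest transcript as length, mean levels over all libraries were 1690 for Tnnt2, 2163 for Tnni3, 2000 for Tnnc1, 1917 for Tpm1 and 85.0 CPM per kb for Tmod1.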

Other observations

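In PPARα-deficient LPS hearts several sarcomere genes were higher in replicates 3 and 4 than in replicates 1 and 2, as values with no test. Actc1 had 3911 and 4149 CPM in replicates 3 and 4 beside 2375 and 2356 CPM in replicates 1 and 2. Tcap, the titin cap of the Z-disc, had 1692 and 1626 CPM beside 691 and 714 CPM. Fhl2 had 549 and 512 CPM beside 264 and 238 CPM, and Lmod3 had 33.4 and 40.9 CPM beside 20.1 and 18.3 CPM. Mybpc3, Tnnc1, Tnni3 and Tnnt2 showed no such step in the same hearts. These genes were chosen after their values were seen.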
